A study of Mus musculus with 36 samples.

Results

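Serotonin receptors were followed here as a family of 10 genes, Htr1a, Htr1b, Htr2a, Htr2c, Htr3a, Htr4, Htr5a, Htr5b, Htr6 and Htr7, out of 17711 genes named on a whole-genome expression array. Their members were taken by gene symbol, which gave 16 probes: 4 for Htr4, 3 for Htr2c, 2 for Htr2a and 1 for each of the others. The family was chosen by log2 changes of these same arrays in the Braf comparison, which were already known. Its values there are therefore a description. No p-value of the 10 genes is given for that comparison, and counts past a threshold stand only beside the share of all probes. RNA came from the complete hippocampus of male mice and was hybridised to Illumina MouseWG-6 BeadChips, on 36 arrays from 23 animals. In the Braf experiment, 5 Braf-cko mice, homozygous for a floxed Braf allele and heterozygous for a CamkIIa-Cre transgene, were compared with 6 Braf-flox littermates, which carried the same floxed alleles without Cre. All were 4 months old and of a mixed background of 93.7% C57BL/6J, 6.2% FVB and 0.1% 129/Sv. In the Cre experiment, 6 CamkII-Cre mice, with the transgene and normal Braf, were compared with 6 CamkII-wt mice without it, all C57BL/6J and 6 months old. The CamkIIa promoter drives Cre in the principal neurons of the forebrain, and cells in which it is not active keep BRAF in Braf-cko mice. Genes next to the transgene on its chromosome travel with it, which the Cre experiment was meant to control.

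Serotonin reaches the hippocampus through axons of the raphe nuclei in the brainstem, and what it does there depends on the receptors of the receiving cells. Htr3a encodes the subunit of a cation channel, and the other 9 genes encode receptors that act through G proteins. Htr1a, Htr1b and the Htr5 receptors mainly inhibit adenylyl cyclase through Gi and Go, Htr2a and Htr2c stimulate phospholipase C through Gq, and Htr4, Htr6 and Htr7 stimulate adenylyl cyclase through Gs. BRAF is a kinase of the ERK/MAPK cascade, which several of these receptors also reach. The comparisons ask which receptor transcripts differ in level in a hippocampus whose principal neurons lost BRAF early in postnatal life, and which differ with the Cre transgene alone.

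Levels are log2 of the deposited normalized intensity, with the arrays of 1 mouse averaged, and a difference of 1 is a doubling of that intensity. Array medians lay between 51.81 and 53.27 in the Braf experiment and between 64.98 and 70.15 in the Cre experiment. The experiments therefore seem to have been normalized apart, and levels are compared within an experiment only. Brightness also depends on how well a probe binds, so no receptor's level is set against another's. The brighter 50% of probes were tested in each comparison. In the Braf experiment 7 receptor probes were among them, 1 each for Htr1a, Htr1b, Htr2a, Htr3a, Htr5b, Htr6 and Htr7, and 9 were not. In the Cre experiment 5 were among them, for Htr1a, Htr2a, Htr3a, Htr5b and Htr6. All probes of Htr2c, Htr4 and Htr5a, and the second Htr2a probe, were dimmer than the limit in both. The Braf probe itself was below the limit in the Braf experiment, with levels of 5.37 to 5.66 in Braf-cko and 5.45 to 5.76 in Braf-flox mice, and where it lies relative to the deleted exon is not given in the sources used here, so it checks nothing. Of the listed markers of hippocampal cells, 6 of 7 for CA1, 7 of 10 for CA3 and CA2, 2 of 5 for dentate granule cells and 10 of 12 for interneurons were bright enough in both experiments, while choroid plexus markers differed widely from mouse to mouse.

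Htr5b was the receptor transcript that set Braf-cko mice apart. It encodes a serotonin receptor of rodents, found in the brain in CA1 pyramidal cells and the habenula among other places, and the human gene has lost its coding function. The log2 level of its probe, ILMN_2595319, was 6.20, 5.84, 6.90, 5.98 and 6.10 in the 5 Braf-cko mice. In the 6 Braf-flox littermates it was 7.58, 7.58, 7.70, 7.19, 7.50 and 7.16. The groups did not overlap, and the highest Braf-cko mouse, replicate 3, stood well above the other 4 of its group while staying below every control. The means were 6.20 ± 0.41 (SD, n = 5) and 7.45 ± 0.22 (SD, n = 6), a log2 change of -1.25 with a standard error of 0.16, or 42.2% of the control intensity. Leaving out 1 mouse at a time moved the change between -1.42, without Braf-cko replicate 3, and -1.16. The Braf-cko mouse that was hybridised again, replicate 1, gave 6.23 and 6.16 on its 2 arrays. Because the array read whole tissue, fewer cells with Htr5b RNA and less RNA per cell cannot be told apart.

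**Figure D1:**
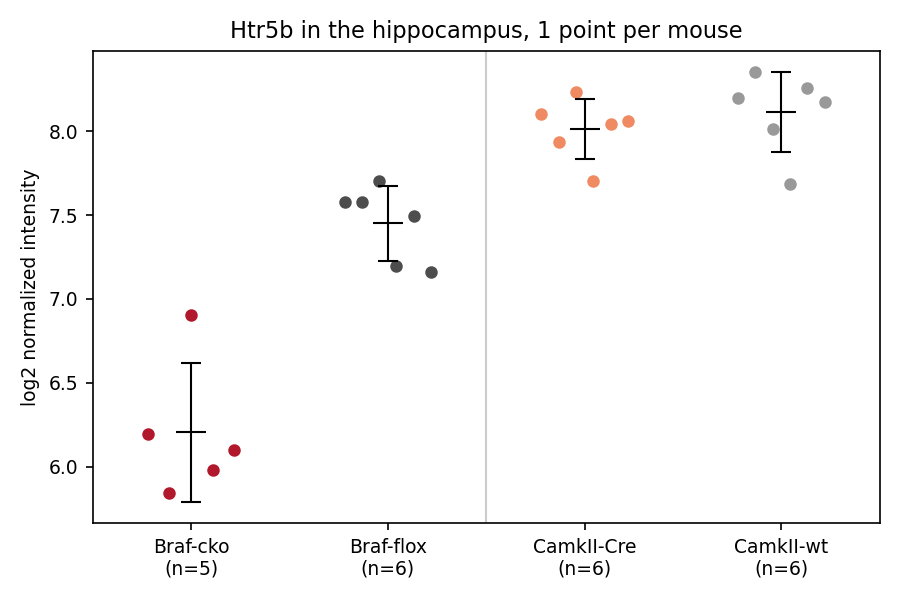
Log2 normalized intensity of the Htr5b probe (vertical axis) in the 4 groups, 1 point per mouse. Bars give the mean and SD, and the experiments seem to have been normalized apart. All 5 Braf-cko mice lie at or below 6.90 and all 6 Braf-flox mice at or above 7.16, while CamkII-Cre and CamkII-wt mice overlap.

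The Cre transgene alone came with no such difference. The 6 CamkII-Cre mice had Htr5b levels of 7.70 to 8.23 (median 8.05) and the 6 CamkII-wt mice of 7.68 to 8.35 (median 8.19). These ranges overlapped almost entirely, and 5 of 6 CamkII-Cre mice were below the control mean. The log2 change was -0.10 with a standard error of 0.11 (adjusted p = 1 from limma), and its 95% interval ran from -0.33 to 0.13, or 79.5% to 110% of the wildtype intensity. It was -0.08 on the first array of each mouse and -0.12 on the second. In a single fit of the 4 groups, the Braf change minus the Cre change was -1.15 with a standard error of 0.21. Placed in order, mean Htr5b levels went up from Braf-cko through Braf-flox and CamkII-Cre to CamkII-wt, but only neighbours of the same experiment can be read against each other, and of those only the Braf pair was separated beyond its spread. Within mice numbered 1 to 3 the Braf change was -1.30 (3 against 3) and within those numbered 4 to 6 it was -1.24 (2 against 3). These are parts of the same mice and no further evidence, and since the whole groups did not overlap, no part of them could.

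Markers of CA1 pyramidal cells, where Htr5b RNA is found, are given beside this difference. The log2 of the summed intensity of the 6 tested, in which the brightest weigh most, ran from 12.73 to 13.23 (median 13.07) in Braf-cko mice. In Braf-flox mice it ran from 13.17 to 13.43 (median 13.20). The ranges overlapped through 1 mouse, Braf-cko replicate 1, which at 13.23 lay above 4 of the 6 controls. By marker, 5 of 6 had a negative log2 change, with a median of -0.33, and 0 of 6 passed the limma test used here. The nearest was Fibcd1, a receptor for acetylated groups that is enriched in CA1 (-0.61, adjusted p = 0.0731 from limma). The study's own analysis of the Braf comparison did list Fibcd1 as downregulated. Next nearest were Lefty1 (-0.38, adjusted p = 0.285 from limma) and Mpped1 (-0.31, adjusted p = 0.371). Dcn, which encodes the matrix proteoglycan decorin, had a positive change of 0.47 (adjusted p = 0.582). Summed markers of thalamus and habenula overlapped, at 10.59 to 11.55 against 10.72 to 11.85, and those of interneurons overlapped only at their edges, at 13.46 to 13.60 against 13.58 to 13.96. In the Cre experiment the CA1 sums were 13.61 to 14.14 and 13.79 to 14.07. Their part in the Htr5b difference was not tested. Htr1a, a second receptor of CA1 pyramidal cells, had a Braf change of 0.17 with a standard error of 0.11. What it says of the amount of CA1 cells was not tested either.

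Across all tested probes of the Braf comparison, 0.532% passed an adjusted p of 0.05, 0.373% with a lower level (0.264% of all probes without the limit on brightness). Among the 7 tested receptor probes 1 passed, Htr5b. At an unadjusted p of 0.05 the share of all tested probes was 10.8%, and 3 of the 7 receptor probes were past it, Htr5b, Htr1b and Htr6. Groups without overlap made up 1.72% of all tested probes, and 1 of the 7 tested receptor probes had that property, Htr5b, while the 9 dimmer ones overlapped. Nothing is read from these counts, since the family was chosen by this comparison. The other 15 probes had log2 changes between -0.15 and 0.34. The median over the 7 tested receptor genes was -0.03, beside -0.0042 over all genes tested.

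**Figure D2:**
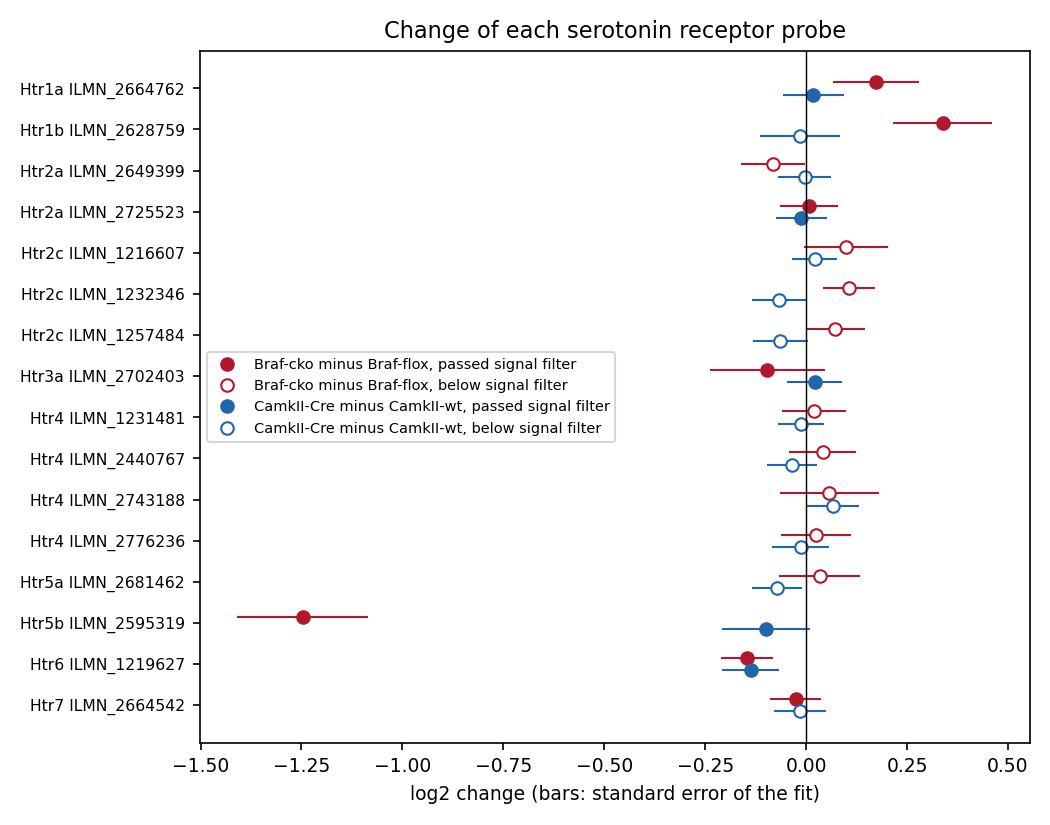
Log2 change (horizontal axis) of each of the 16 receptor probes in Braf-cko minus Braf-flox mice (red) and CamkII-Cre minus CamkII-wt mice (blue), with the standard error of the fit as a bar; filled points passed the limit on brightness and open points did not. Htr5b at -1.25 stands far to the left in the Braf comparison, and every other change lies between -0.15 and 0.34.

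Among the other receptors that act through Gi and Go, Htr1b had the second largest change. It encodes the receptor on axon terminals that holds back transmitter release. Its log2 level was 5.86, 5.77, 6.08, 6.07 and 6.42 in the Braf-cko mice and 5.37 to 5.98 (median 5.70) in the Braf-flox mice. All 5 Braf-cko mice were above the control mean, yet the 2 lowest lay inside the control range. The change was 0.34 with a standard error of 0.12, from 0.24 to 0.40 as each mouse was left out, in the direction opposite to Htr5b. With the Cre transgene alone the probe was below the limit, at 5.48 to 6.01 against 5.33 to 5.89, with a change of -0.01 (95% interval -0.23 to 0.20, adjusted p = 1 from limma without the limit).

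Htr1a encodes the inhibitory receptor that serotonin uses to open potassium channels in pyramidal cells, and it is also the autoreceptor of raphe neurons. Its level was 8.33, 8.52, 8.19, 8.32 and 8.52 in Braf-cko mice and 7.85 to 8.48 (median 8.20) in Braf-flox mice. The groups overlapped, with 4 of 5 Braf-cko mice above the control mean, and the change was 0.17 with a standard error of 0.11. CamkII-Cre mice had 8.51 to 8.83 and CamkII-wt mice 8.38 to 8.81, a change of 0.02 (95% interval -0.14 to 0.18, adjusted p = 1 from limma). Htr5a, the sister gene of Htr5b and the only one of the pair that codes for a receptor in humans, was among the dimmest receptor probes, brighter than 12.5% of all probes. It had levels of 4.97 to 5.45 in Braf-cko and 4.99 to 5.39 in Braf-flox mice, with a change of 0.03 (standard error 0.10). Its Cre change was -0.07 (95% interval -0.20 to 0.06), and it was below the limit in both.

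The channel subunit gene Htr3a is expressed in the forebrain by a class of interneurons. Its levels were 7.47, 6.79, 7.27, 6.94 and 6.92 in Braf-cko mice and 6.66 to 7.44 (median 7.26) in Braf-flox mice. The groups overlapped over nearly their whole range, and the change was -0.10 with a standard error of 0.14. In the Cre experiment, levels were 7.55 to 7.96 and 7.58 to 7.81, with a change of 0.02 (95% interval -0.13 to 0.17, adjusted p = 1 from limma).

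Of the receptors that act through Gq, Htr2a, the target of classical hallucinogens, had 1 probe bright enough to be tested. The level of that probe, ILMN_2725523, was 5.91, 6.06, 6.05, 5.79 and 5.85 in Braf-cko mice and 5.82 to 6.04 in Braf-flox mice, and the change was 0.01 (standard error 0.07). Both groups covered the same range, as they did in the Cre experiment, where the change was -0.01 (95% interval -0.15 to 0.12, adjusted p = 1 from limma). The dimmer probe, ILMN_2649399, had a change of -0.08 (standard error 0.08) in the Braf and of -0.0032 (standard error 0.07) in the Cre comparison.

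Htr2c, whose RNA is edited and which is strongly expressed in the epithelium of the choroid plexus, was covered by 3 probes, all below the limit. For ILMN_1216607, ILMN_1232346 and ILMN_1257484, in that order, the Braf changes were 0.10, 0.11 and 0.07 with standard errors of 0.10, 0.06 and 0.07, each with overlapping groups. The Cre changes were 0.02, -0.07 and -0.06, all with intervals that include 0. The log2 level of the choroid plexus marker Ttr, which encodes the carrier transthyretin, ran from 6.79 to 14.95 over the 23 mice. That was a 142-fold span in the Braf and a 212-fold span in the Cre experiment. How much choroid plexus tissue each sample held was not measured. Within an experiment each Htr2c probe spanned only 0.27 to 0.62 on the log2 scale. The mouse with the highest Ttr of the Braf experiment, Braf-flox replicate 6 at 13.95, had Htr2c levels of 5.19, 5.14 and 5.65, and CamkII-wt replicate 3, at 14.95, had 5.71, 5.79 and 5.96, all within the range of the other mice. In the 4 mice of the Cre experiment with the highest Ttr, ILMN_1257484 was at 5.80, 5.96, 6.02 and 5.97, against 5.69 to 5.95 in the other 8. All but the first of these values lay above every one of the other 8. The part of that tissue in the Htr2c values was not tested.

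**Figure D3:**
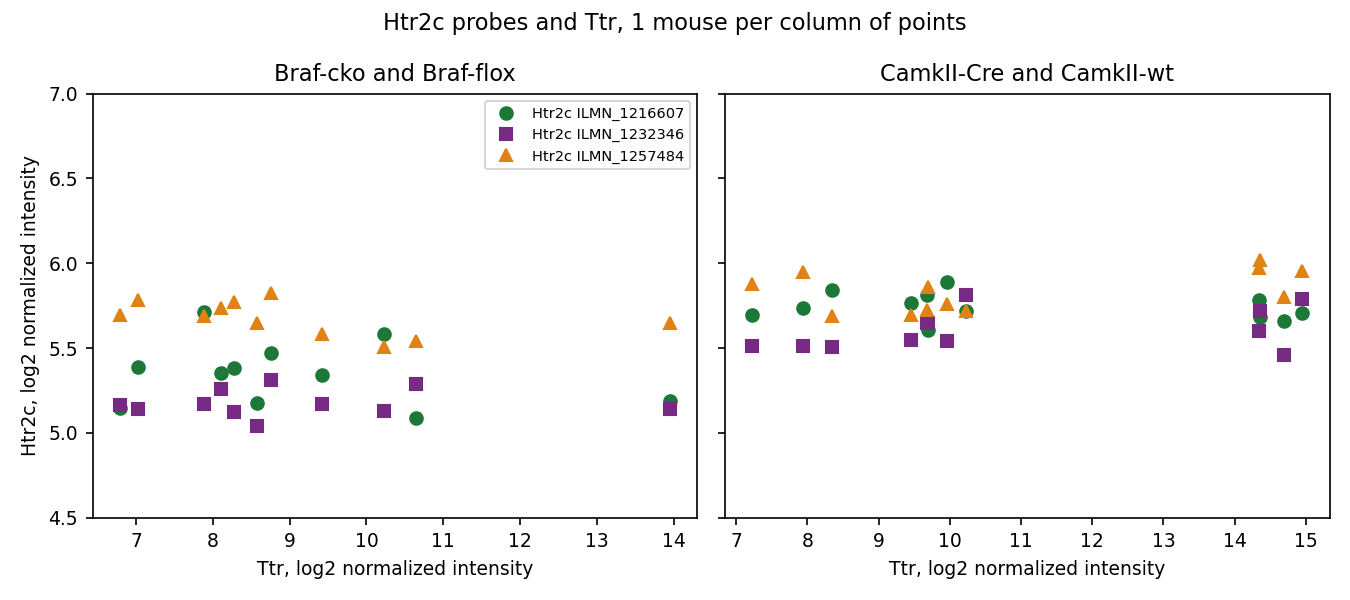
Log2 normalized intensity of the 3 Htr2c probes (vertical axis) against that of Ttr (horizontal axis), 1 column of points per mouse, in the Braf experiment (left) and the Cre experiment (right). The Htr2c points stay within a narrow band while Ttr runs from 6.79 to 14.95.

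Among the receptors that act through Gs, Htr6, a forebrain receptor studied as a target for cognition, had a lower mean in the mice with Cre in both experiments. Its level was 5.78, 5.66, 5.62, 5.77 and 5.68 in Braf-cko mice and 5.73 to 5.96 (median 5.86) in Braf-flox mice. All 5 Braf-cko mice were below the control mean, and the ranges overlapped at their edges. The change was -0.15 with a standard error of 0.06. CamkII-Cre mice had 5.90 to 6.23 (median 6.15) and CamkII-wt mice 6.15 to 6.40 (median 6.22), with all 6 CamkII-Cre mice below the control mean. The change there was -0.14 with a standard error of 0.07 and a 95% interval of -0.29 to 0.01, and it did not pass the test (adjusted p = 1 from limma). The 2 arrays of each mouse disagreed about it: on the first arrays the change was -0.30, with 6 of 6 mice lower, and on the second it was 0.02, with 3 of 6 lower. So the shift in the Cre experiment was carried by 1 set of arrays.

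Htr7, a receptor linked to circadian timing and mood, had levels of 6.13, 6.06, 6.09, 5.96 and 5.98 in Braf-cko mice and 6.01 to 6.18 in Braf-flox mice. Both groups lay within the same narrow band, with a change of -0.03 (standard error 0.06). In the Cre experiment the probe was just below the limit, and its change was -0.02 (95% interval -0.15 to 0.12, adjusted p = 1 from limma without the limit). Htr4, which raises the excitability of hippocampal pyramidal cells, was read by 4 dim probes. Their Braf changes were 0.02 to 0.06 and their Cre changes -0.04 to 0.07, each less than its standard error or close to it.

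**Figure D4:**
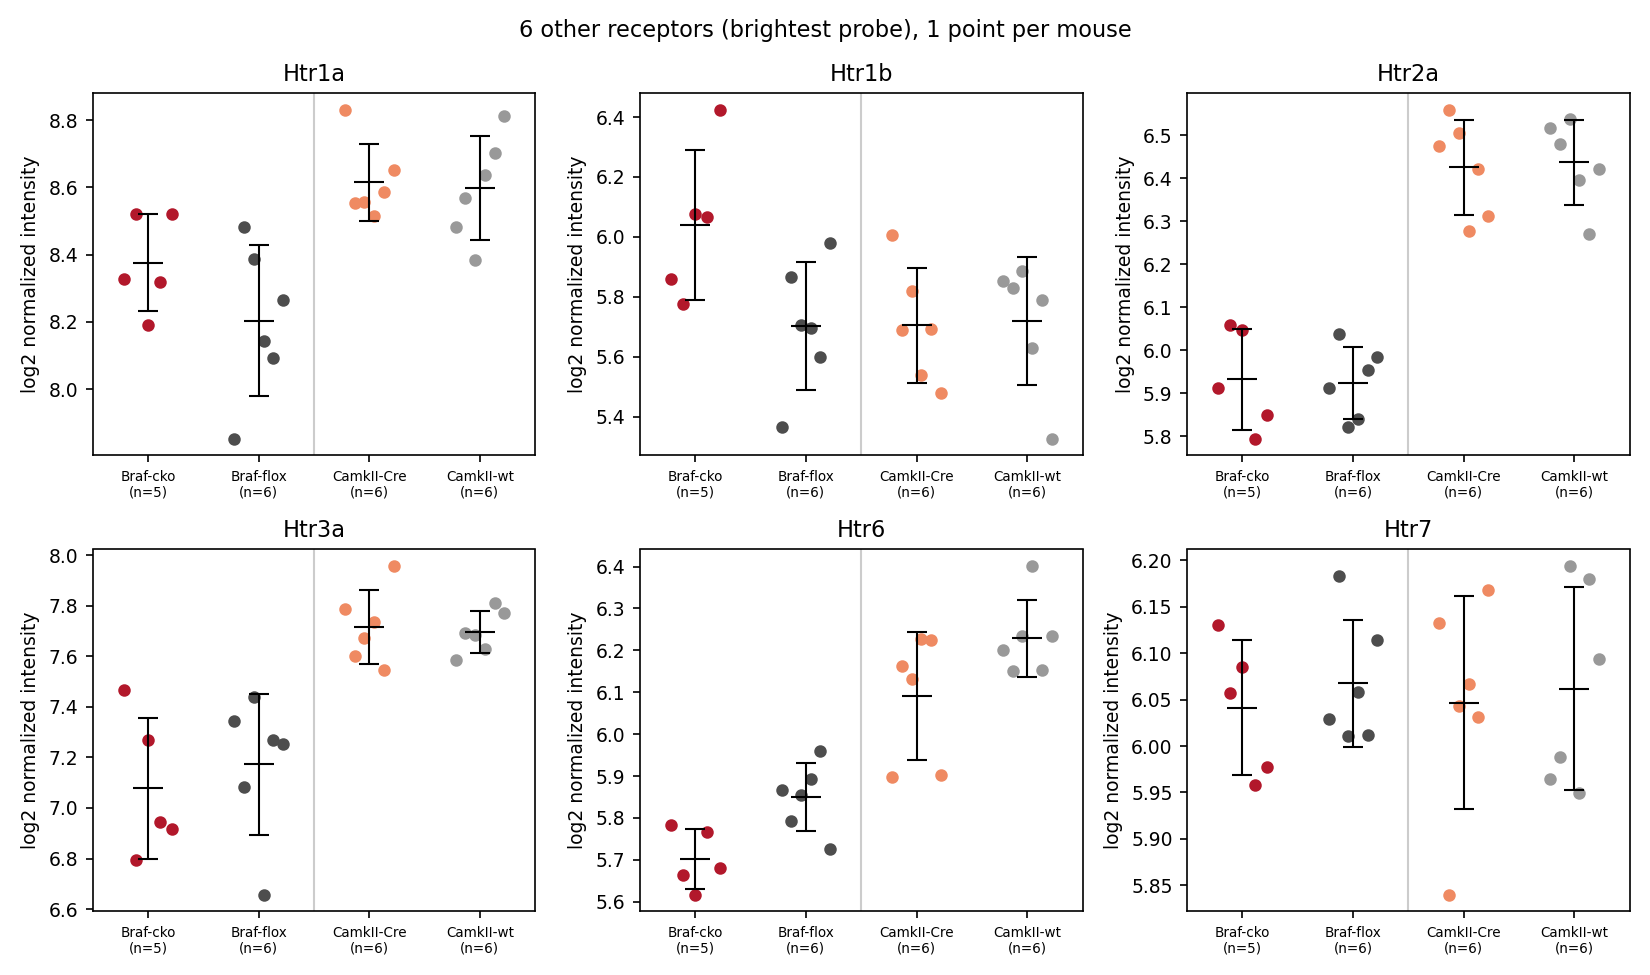
Log2 normalized intensity (vertical axis, scaled for each gene) of the 6 other receptors with a tested probe, 1 point per mouse in the 4 groups. Bars give the mean and SD, and the grey line separates experiments that seem to have been normalized apart. Case and control mice overlap in every panel.

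In the Cre comparison 0.00858% of all tested probes passed the adjusted threshold, and 0 of the 5 tested receptor probes did. At an unadjusted p of 0.05 the figures were 1.63% of all tested probes and 0 of the 5, and without the limit on brightness, where 0.0129% of all probes passed, limma called 0 of 16. Groups without overlap made up 0.0815% of all tested probes, and every one of the 16 receptor probes overlapped. The median log2 change of the 5 tested receptor genes was -0.01, beside -0.0021 over all genes. For the 16 probes the 95% intervals of the change lay between -0.33 and 0.20.

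The 12 mice of the Cre experiment had 2 arrays each, so the spread between mice can be set beside that between repeat arrays. The spread between mice is that of 2-array means, which still hold part of the array noise, while the other is that of single arrays. The ratio of the 2 is therefore a description, and a value of 1 is no border between noise and differences of mice. For Htr5b the SD between mice was 0.21 and that between repeat arrays 0.12, a ratio of 1.82, higher than for 81.1% of tested probes. Htr1a came next with 0.14 and 0.08, a ratio of 1.64. For all tested probes the median ratio was 1.11, Htr3a had 1.09, and the ratio was under 1 for the 2 probes of Htr2a, the 3 of Htr2c, the 4 of Htr4 and those of Htr5a, Htr6 and Htr7. Htr1b had 1.06. For Htr6 the SD between mice was 0.13 and that between repeat arrays 0.18, a ratio of 0.69.

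The second set of arrays was also shifted as a whole for single receptors. Htr1a was lower there by 0.35 on the log2 scale and Htr2a ILMN_2725523 was higher by 0.36, where the median size of the shift over all tested probes was 0.14. Since each mouse was on both sets, the shift cancels in the comparison of CamkII-Cre with CamkII-wt mice. It still shows what a comparison across sets would have met. For 8 of the 16 probes the change had opposite signs on the first and second arrays, namely Htr1b (-0.13 and 0.10), Htr7 (-0.12 and 0.08), Htr6, Htr1a, Htr3a, the dimmer Htr2a probe and 2 of Htr4, and Htr5b was the 1 tested receptor with a negative change of more than 0.05 on both.

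**Figure D5:**
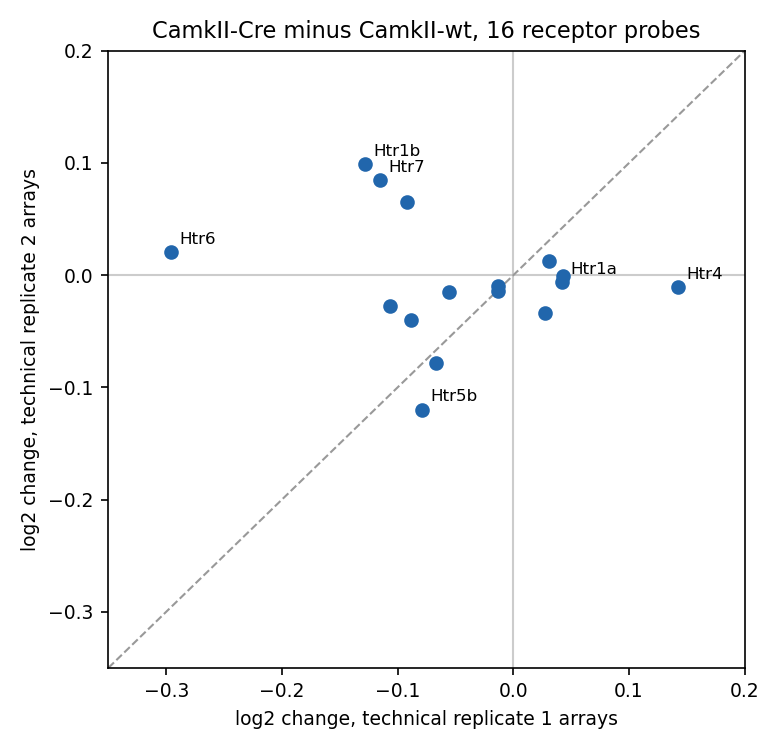
Log2 change of the 16 receptor probes, CamkII-Cre minus CamkII-wt, on the first array of each mouse (horizontal axis) and on the second (vertical axis); the dashed line marks equal values and each point is 1 probe. Htr6 lies at -0.30 and 0.02, Htr5b at -0.08 and -0.12.

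The remaining serotonin genes were read from lists. Htr1d, Htr1f, Htr2b and Htr3b were all below the limit in both experiments. Of these Htr1f, a Gi-coupled receptor targeted in migraine, had the largest Braf change, -0.26 with a standard error of 0.10 (adjusted p = 0.499 from limma without the limit). Tph2, which makes serotonin in the raphe, and both probes of its transporter Slc6a4 were below the limit as well, which leaves the incoming axons unread, since their RNA stays in the brainstem. Of 19 genes for synthesis, transport and breakdown, 16 had a probe and 9 were tested, and 0 passed in either comparison. Nearest to the threshold was Pts, an enzyme of the pathway to the cofactor of tryptophan hydroxylase, with a Braf change of -0.34 (adjusted p = 0.187) and a Cre change of 0.01. Slc29a4, a monoamine transporter of the plasma membrane, had a Braf change of 0.16 (adjusted p = 0.73), and Spr, a further enzyme of that cofactor pathway, had one of -0.04 (adjusted p = 0.905). The median change over the 9 genes was 0.03 in the Braf and 0.04 in the Cre comparison.

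Of 50 genes for receptor partners and signal transduction, 46 had a probe. In the Braf comparison 44 were tested and 0 passed, with a median change of -0.02, and in the Cre comparison 42 were tested and 0 passed, with a median of -0.0025. The smallest adjusted p-values from limma in the Braf comparison belonged to Gnai1, Gnaq and Adcy8. Gnai1, a Gi subunit among several of the Gi and Go class, changed by -0.34 (adjusted p = 0.132). Gnaq, a subunit of the Gq class that Htr2 receptors use, changed by -0.25 (adjusted p = 0.191). Adcy8, a calcium-stimulated adenylyl cyclase, changed by -0.53 (adjusted p = 0.198). The Cre changes of Gnai1, Gnaq and Adcy8 were -0.0026, 0.02 and -0.0021. All 3 had lower means in Braf-cko mice, and none passed the test.

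Genes whose level varied from mouse to mouse most like Htr5b were sought over the deviations of the 23 mice from their group means, among 10721 genes tested in both experiments. The 5 with the highest Pearson correlation were Rab42, a small GTPase (r = 0.755, Spearman's rho = 0.662), Trappc9, a subunit of a vesicle tethering complex (0.752 and 0.708), Vxn (0.747 and 0.71), Npas1, a transcription factor of forebrain interneurons (0.74 and 0.744), and Trpc5, a cation channel of hippocampal neurons (0.708 and 0.65). Without the 2 mice farthest from the median of Htr5b the r values were 0.548 to 0.688. Npas1 had a like r in the mice of both experiments, 0.743 and 0.757, and Rab42 the least alike, 0.876 and 0.45. These are descriptions of the highest of many values on shared arrays, with no p-value. Of the 5 genes, Vxn (-0.37, standard error 0.10) and Trpc5 (-0.34, standard error 0.09) were also at lower means in Braf-cko mice, and the Braf changes of Rab42, Trappc9 and Npas1 were 0.05, -0.03 and 0.03.

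ERK signaling acts on promoters through CREB, ETS and EGR factors, so the promoters of the receptors were searched for their core motifs on both strands. RefSeq (GRCm38.p6) gave 8 windows of 300 bases, from 250 before to 50 after the start, for 7 of the 10 genes, and none for Htr3a, Htr4 and Htr5b. The CRE palindrome TGACGTCA, present in 1.79% of 32851 windows, and the ETS core CCGGAAG, in 8.86%, were in none of the 8. The shorter CRE core TGACG, in 20.8% of all windows, and the EGR motif GCGNGGGCG, in 5.55%, were each in 1, that of Htr7. Its stretch is shown as the only receptor window with a match, at chr19:36057418-36057480 on the minus strand, with the 2 matches, which share a base, in capitals and read here on the strand opposite to the motif.
Htr7: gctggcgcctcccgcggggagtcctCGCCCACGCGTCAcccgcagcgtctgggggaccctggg
The Htr7 transcript next to these letters changed by -0.03 on the log2 scale in Braf-cko mice. A match is only a run of letters, and its absence elsewhere says nothing about the factors.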

How the data were processed

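Hippocampal RNA of 23 mice was read on 36 arrays: 5 Braf-cko, 6 Braf-flox, 6 CamkII-Cre and 6 CamkII-wt animals, grouped and numbered by the sample labels. The authors deposited an intensity per probe and array on a linear scale, normalized between arrays with beadarray, limma and vsn, and the order and settings of those steps are not given in the sources used here. No background was subtracted afterwards, so fold changes are on that scale. A second deposited table of unnormalized signals with detection p-values has 72 columns whose names match no sample label, and these were not used, so brightness stands in for detection. The log2 of each intensity was averaged over the arrays of a mouse. Of 46632 probes the 23316 with the higher mean in a comparison were tested with limma 3.58.1 in R 4.3.3 (lmFit and eBayes, two-sided, Benjamini-Hochberg adjustment over all tested probes, threshold 0.05). For dimmer receptor probes the fit without that limit is given. Gene names came from the platform annotation (1 symbol for 29976 probes, several for 10, none for 16646), of which 29921 were matched to the reference table. In lists a gene was represented by its brightest tested probe. All 10 receptors are named, and the 5 genes most like Htr5b. For synthesis, transport and breakdown, receptor partners and CA1 markers, the 3 genes with the smallest adjusted p in the Braf comparison are named. Further genes, such as Dcn, Ttr, Tph2 and Slc6a4, are named outside that rule. The members and lists were chosen with earlier results of these data known. Alternatives were other limits on brightness, quantile normalization and a pseudocount of 16. Others were blocks for the animal number and for animals 1 to 3 and 4 to 6, and single sets of arrays. An ordinary t-test in place of limma, and leaving out each mouse, were also run. The fits were tested on simulated data, where of 100 probes changed by 0.5 and 100 by 1 on the log2 scale among 23316, 67% and 97% were recovered in the Braf design with 6 false calls, and 84% and 99% in the Cre design with 11. Precision is limited by how many mice there were, since the arrays of a mouse were averaged and do not count as replicates.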

Additional observations from a re-analysis of the deposited data

Results flagged for a closer look

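The Htr5b change differed between the experiments, at -1.15 on the log2 scale for the Braf change minus the Cre change (standard error 0.21 in the limma fit of the 4 groups). The 2 experiments also differ in age, strain and, it seems, normalization, which cannot be told apart from Braf in that difference. The difference also contains the comparison by which the receptors were chosen.

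Over 64 groups of 5 or 6 mice, each probe in each group, 5 held 1 mouse far from the others, and chance gives about 1 in 20. For Htr2c ILMN_1216607, CamkII-wt replicate 2 was highest at 5.84, with the next mouse at 5.74. For Htr4 ILMN_1231481, CamkII-Cre replicate 1 was highest at 5.65 (next 5.45) and CamkII-wt replicate 5 was lowest at 5.34 (next 5.45). For Htr5a, Braf-flox replicate 2 was highest at 5.39 (next 5.135). For Htr6, CamkII-wt replicate 4 was highest at 6.40 (next 6.23). Of these probes only that of Htr6 was bright enough to be tested.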

How the results depend on the processing

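The Htr5b change in the Braf comparison lay between -1.42 and -1.16 as each mouse was left out, and the number of receptor probes past the limma threshold was 1 under every alternative but 2, a count on the comparison by which the family was chosen and so no sign of stability. It was 0 when only the brightest 25% of probes were tested, since the Htr5b probe was then not among them. It was also 0 under an ordinary t-test with Benjamini-Hochberg adjustment, where 19 of all probes passed in place of 124. The study names limma, not that t-test, for its array data. Over all probes 69 to 114 passed as single mice were left out, 72 without Braf-cko replicate 1, 69 without replicate 4, 76 without replicate 5 and 81 without Braf-flox replicate 5. The Htr5b change was -1.25 after quantile normalization and -1.08 with the pseudocount. In the Cre comparison no alternative called a receptor. There the second arrays alone turned the direction of 3 small changes, to -0.0060 for Htr1a, -0.00080 for Htr3a and 0.0205 for Htr6, and leaving out single mice moved Htr1a between -0.02496 and 0.061, Htr2a between -0.0453 and 0.01758 and Htr3a between -0.02707 and 0.05538. Whether the animal numbers pair the mice is not settled: same-number correlations were -0.14 to 0.13 in the Braf and a mixed -0.24 to 0.59 in the Cre experiment. With the replicate block 58 probes passed in place of 124 (46 lower, 12 higher), the Htr5b change was -1.305 (standard error 0.12), and the receptors called were 1 and 0 as before. In the Cre comparison 2 probes passed, 3 with the block, 6 with no limit on brightness, 1 with the t-test, and 4 with the brightest 25% of probes, the block of animal sets or the first arrays alone, and 2 to 4 as single mice were left out (4 without CamkII-Cre replicate 1). Dim probes bound what can be said of Htr2c, Htr4 and Htr5a.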
